A study of Mus musculus with 42 samples.

Results

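The 10 genes described here encode parts of the neuromuscular junction, where the motor nerve meets the muscle fiber. They are 6 acetylcholine receptor subunits (Chrna1, Chrnb1, Chrnd, Chrne, Chrng and Chrna9), the receptor kinase MuSK (Musk) and its partner Lrp4, the adaptor Dok7, and the adhesion molecule Ncam1. They were taken by gene symbol from the table of normalized read counts, which holds 13809 genes, and 10 of 10 were found in it, each on a single row. RNA was sequenced from the tibialis anterior, a muscle of the lower hindlimb, of male C57BL/6J mice aged 4 months, in 42 libraries that fall into 11 groups and 2 sets. The study's methods name this strain only for the Sesn1SkM-Tg line. Set 2 (20 libraries) holds WT muscle in the basal state, after 3 days of immobilization of the right hindlimb, and 3 days after denervation, in which a piece of the sciatic nerve was cut out. It also holds basal and immobilized muscle of Sesn1KO mice, which carry a Sesn1 knockout. Set 1 (22 libraries) holds basal and immobilized muscle of WT mice, of Sesn1SkM-Tg mice, in which the muscle creatine kinase (MCK) promoter drives human Sesn1, and of Sesn2SkM-Tg mice, in which MCK-tTA drives a Tet-regulated Sesn2. Each group has 4 libraries, other than immobilized WT muscle of set 1 and immobilized Sesn1SkM-Tg muscle, which have 3. Basal muscle came from mice that were neither immobilized nor denervated. The labels call the WT mice of set 1 a single group and do not tie them to the litters of a transgenic line, and neither labels nor methods say whether each library is 1 animal, so the p-values measure the spread between these libraries. Denervation was done in WT mice of set 2 alone, so how it acts in Sesn1KO or transgenic muscle was not measured. All fits and tests were kept within a set, and values of the 2 sets placed side by side were not tested against each other.

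The muscle acetylcholine receptor is a ring of alpha, beta and delta subunits completed by gamma in the fetal form and by epsilon in the adult form. Agrin released by the nerve binds Lrp4, which activates MuSK, and MuSK with its adaptor Dok7 gathers the receptors beneath the nerve terminal through rapsyn. In innervated adult fibers the subunit genes are transcribed mainly by the few nuclei under the synapse, and loss of the nerve is known to bring back transcription along the fiber, with myogenin and MyoD acting at E-boxes in their promoters.

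The promoters of 4 genes are shown because they belong to the receptor genes that moved apart (Chrng and Chrne) and to Chrna1 and Musk, as 1 further receptor subunit and the kinase, and the promoters of the other members are not printed. Each is the 250 bases before the RefSeq transcript start in the mouse GRCm38.p6 assembly, written 5′ to 3′ on the strand of the gene, with E-boxes (CANNTG) and, in Chrne, the N-box (CCGGAA) in capitals.
Chrng, chr1:87205561-87205810, plus strand: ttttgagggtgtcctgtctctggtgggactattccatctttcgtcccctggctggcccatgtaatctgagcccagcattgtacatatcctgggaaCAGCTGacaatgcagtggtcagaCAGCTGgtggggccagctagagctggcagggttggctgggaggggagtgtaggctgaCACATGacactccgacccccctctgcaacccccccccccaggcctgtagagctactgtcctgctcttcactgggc
Chrna1, chr2:73580339-73580588, minus strand: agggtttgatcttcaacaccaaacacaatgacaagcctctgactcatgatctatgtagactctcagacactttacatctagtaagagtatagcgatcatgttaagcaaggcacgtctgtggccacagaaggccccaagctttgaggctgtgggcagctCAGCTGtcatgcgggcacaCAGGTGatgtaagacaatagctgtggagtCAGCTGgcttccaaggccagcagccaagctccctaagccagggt
Musk, chr4:58285712-58285961, plus strand: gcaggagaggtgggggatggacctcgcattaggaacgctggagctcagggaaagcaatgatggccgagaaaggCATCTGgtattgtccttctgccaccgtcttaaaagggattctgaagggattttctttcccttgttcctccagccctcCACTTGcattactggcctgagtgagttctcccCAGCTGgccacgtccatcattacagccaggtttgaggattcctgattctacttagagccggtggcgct
Chrne, chr11:70619195-70619444, minus strand: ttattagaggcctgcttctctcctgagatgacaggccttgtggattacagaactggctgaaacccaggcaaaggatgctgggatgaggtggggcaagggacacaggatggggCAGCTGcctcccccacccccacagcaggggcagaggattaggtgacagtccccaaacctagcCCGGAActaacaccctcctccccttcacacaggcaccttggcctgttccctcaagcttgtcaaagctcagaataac

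Chrng, Chrna1 and Musk each held 3 E-boxes in this window and Chrne held 1. Counted back from the transcript start, those of Chrng began at -155, -132 and -75, those of Chrna1 at -92, -73 and -44, those of Musk at -177, -100 and -68, and that of Chrne at -138. Of all 32851 promoter windows in the RefSeq table, 66.2% held at least 1 CANNTG and 12.2% held at least 3. The form CAGCTG occurred in 13.0% of windows once or more and in 1.26% at least 2 times, as in Chrng and Chrna1. The N-box, searched on both strands, occurred in 12.0% of windows. CANNTG includes CAGCTG, and both read the same on either strand. Chrnb1 held 3 E-boxes, Chrna9 held 2, and the windows of Dok7 held 1 and 0. In all, 7 of the 10 genes had a window, since Chrnd, Lrp4 and Ncam1 had no entry. These are matches of letters and do not show that a factor bound there.

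The deposited values are linear normalized counts on a scale near that of CPM, and the number of reads behind a library is unknown, so no counting error can be given. They summed to between 1042064 and 1099736 in basal WT libraries of set 2 and to between 722430 and 811541 in denervated ones. No value in the table is 0. Libraries of a group correlated at 0.959 to 0.991 over all genes on the log2 scale. The Sesn1 row, which checks the knockout, lay between 8.41 and 10.0 in basal Sesn1KO muscle and between 22.5 and 29.7 in basal WT muscle, but in immobilized muscle the ranges of Sesn1KO (19.4 to 37.3) and WT (30.7 to 53.1) overlapped. Sesn1 in Sesn1SkM-Tg and Sesn2 in Sesn2SkM-Tg muscle were above WT in every library of either state. Changes are given as log2 fold changes on the log2(value + 1) scale, which understates changes of genes with low values. A gene was called changed when limma gave a Benjamini-Hochberg adjusted p under 0.05 over all genes tested and the log2 fold change was 0.25 or more in size. In bulk tissue, fewer cells of a type and less RNA per cell cannot be told apart.

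Denervation and immobilization, compared in WT muscle of set 2, differed in how they moved these genes. All 10 genes changed in denervated against basal muscle, 9 higher and only Chrne lower, where 55.5% of the 13629 genes tested were called (27.8% higher and 27.7% lower). In immobilized against basal muscle 6 of 10 were called, with Chrna1, Chrnb1, Musk and Dok7 higher and Chrne and Lrp4 lower, against 33.9% of all genes (16.2% higher and 17.7% lower). Directly compared, denervated muscle was higher than immobilized muscle for 9 of 10, all but Chrne, against 38.9% of all genes called (20.5% higher and 18.4% lower). Genes were tested if they reached 1 in any library of the set, which Chrng did only in denervated libraries. With no filter on low values the 3 counts were again 10, 6 and 9. The median log2 fold change of the 10 genes was 2.85 for denervation, 0.32 for immobilization and 2.07 for denervated against immobilized muscle, while the medians over all genes were -0.03, -0.02 and -0.02. The first pair of comparisons share the basal libraries. Scaling all libraries to the same sum raised the median of all genes by 0.37 for denervation, by 0.28 for denervated against immobilized muscle and by 0.10 for immobilization. The share of calls that were higher then went from 50.1% to 77.1%, from 52.7% to 82.3% and from 47.7% to 64.3%, while 10, 9 and 7 of the genes described here were called.

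**Figure D1:**
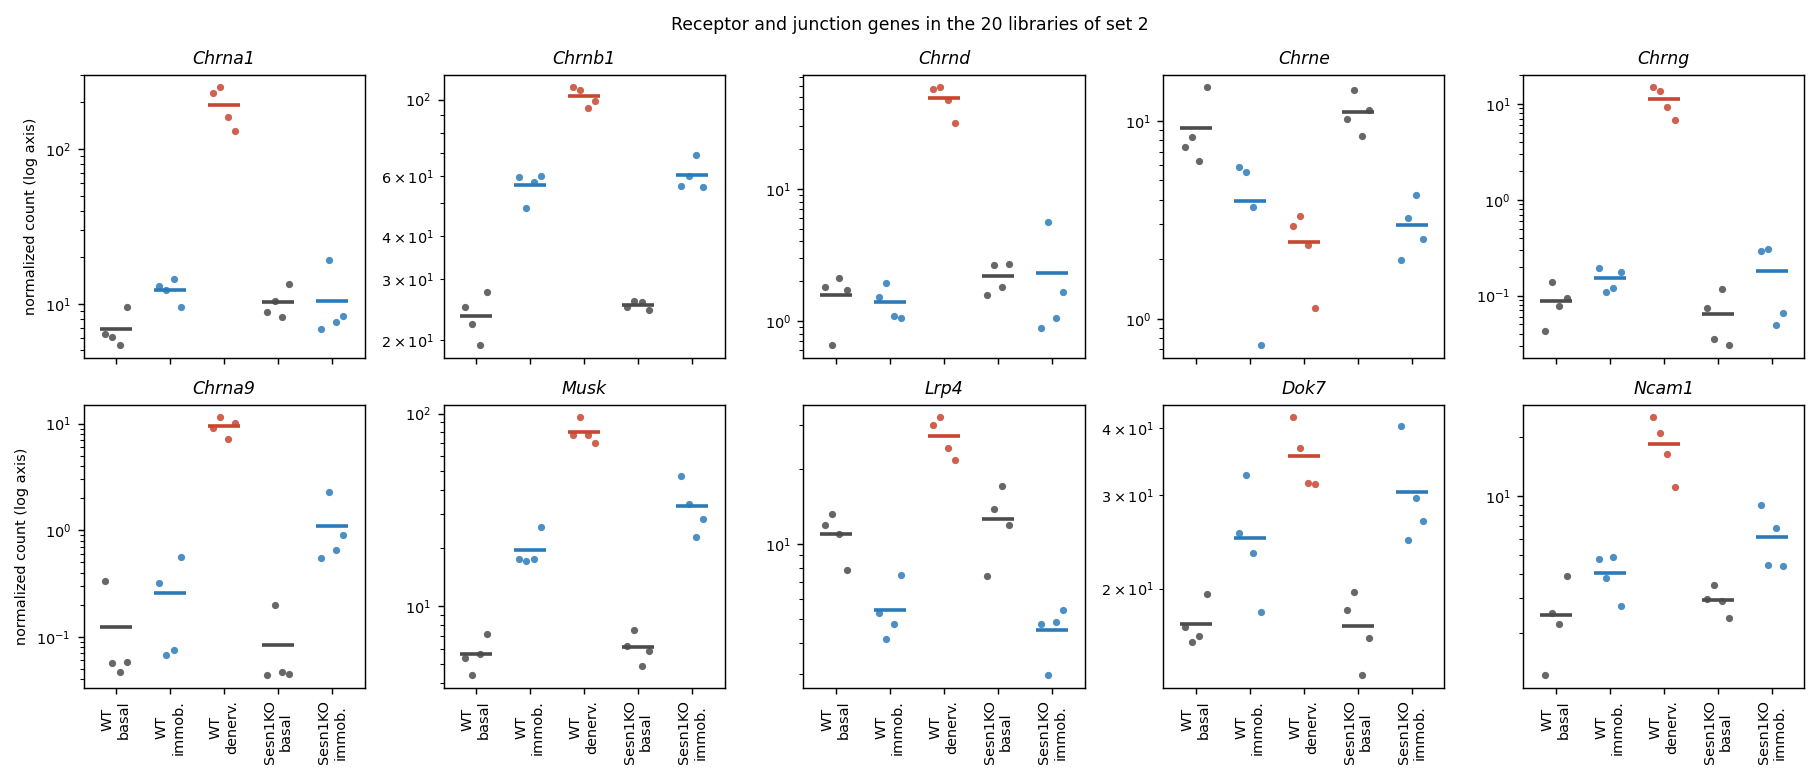
Normalized counts (log axes) of the 10 genes in the 20 libraries of set 2, with 1 point for each library and a line at the mean of each group (WT basal, WT immobilized, WT denervated, Sesn1KO basal, Sesn1KO immobilized). In 9 panels the denervated libraries lie above all basal WT libraries, and in the Chrne panel they lie below them.

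Chrna1 encodes the alpha subunit, which carries the main part of the acetylcholine binding site. Its normalized count was 6.40, 6.13, 5.44 and 9.60 in the 4 basal WT libraries, 13.0, 12.3, 14.4 and 9.58 in the immobilized ones, and 230.3, 250.4, 161 and 131 in the denervated ones. The denervated libraries thus stood far above all the others, while a single immobilized library (replicate 4) lay within the basal range. Means were 6.89 ± 1.85, 12.3 ± 2.03 and 193 ± 56.4 (SD, n = 4 each). Chrna1 rose 28.0-fold by the ratio of means with denervation (log2 fold change 4.60, SE 0.25, adjusted p = 5.9e-12) and 1.79-fold with immobilization (0.77, SE 0.25, adjusted p = 0.022). The call for immobilization was lost without basal replicate 2 (0.73), basal replicate 3 (0.68) or immobilized replicate 3 (0.69). Denervated muscle exceeded immobilized muscle 15.7-fold (3.83, adjusted p = 3.5e-10).

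Chrnd, the delta subunit, was low in innervated muscle and rose only with denervation among these WT groups. It measured 1.81, 0.659, 2.09 and 1.703 in basal libraries, 1.503, 1.92, 1.09 and 1.05 in immobilized libraries and 57.0, 58.7, 47.0 and 31.6 in denervated libraries. Basal and immobilized libraries overlapped, and every denervated library was above them. The log2 fold change was 4.27 (SE 0.30, adjusted p = 2.4e-10) with denervation, a 31.0-fold ratio of means, and -0.08 with immobilization (95% interval -0.71 to 0.56, adjusted p = 0.87). Chrnb1, the beta subunit, was instead higher under both conditions. Its values were 25.0, 22.3, 19.4 and 27.5 in basal muscle, 59.6, 48.4, 57.7 and 59.8 after immobilization, and 109, 107, 94.8 and 98.9 after denervation, so the 3 groups did not overlap. It rose 2.39-fold with immobilization (1.23, SE 0.10, adjusted p = 2.1e-08) and 4.34-fold with denervation (2.08, SE 0.10, adjusted p = 1.2e-12), and the difference between the conditions was 0.85 (adjusted p = 1.1e-06).

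Chrng and Chrne encode the gamma and epsilon subunits, which take the same place in the fetal and the adult receptor. Chrng measured 0.0429, 0.140, 0.0777 and 0.0943 in basal WT libraries and 0.196, 0.109, 0.121 and 0.177 in immobilized ones. These are among the lowest values of the table, with at most 2.35% of the genes of a basal library and 2.75% of the genes of an immobilized library lower. In denervated libraries Chrng measured 14.9, 13.9, 9.22 and 6.81, with 42.0% to 57.4% of genes lower. No other library of set 2 reached 1, so Chrng passed the filter on low values there only through the denervated libraries. The log2 fold change was 3.43 with denervation (SE 0.18, adjusted p = 3.7e-12) and 0.08 with immobilization (95% interval -0.30 to 0.46, adjusted p = 0.77), and no ratio of means is given against values so close to the floor of the table.

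Chrne went the other way. Its values were 7.36, 8.26, 6.26 and 14.8 in basal muscle, 5.84, 5.53, 3.68 and 0.740 in immobilized muscle and 2.93, 3.32, 2.35 and 1.14 in denervated muscle. All libraries of both conditions lay below the basal ones, and the conditions overlapped each other. Chrne fell to 0.266 of the basal mean with denervation (-1.55, SE 0.34, adjusted p = 0.00061) and to 0.431 with immobilization (-1.15, SE 0.34, adjusted p = 0.012). Without basal replicate 4, the highest, the immobilization value was -0.92 and no longer called. Denervated and immobilized muscle did not differ by the test (-0.40, 95% interval -1.11 to 0.32, adjusted p = 0.38), but without immobilized replicate 4, the library with the lowest Chrne, the difference was -0.84 and called. The basal libraries spread unevenly as well, replicate 4 being the highest for Chrna1, Chrnb1, Chrne, Musk, Dok7 and Ncam1.

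**Figure D2:**
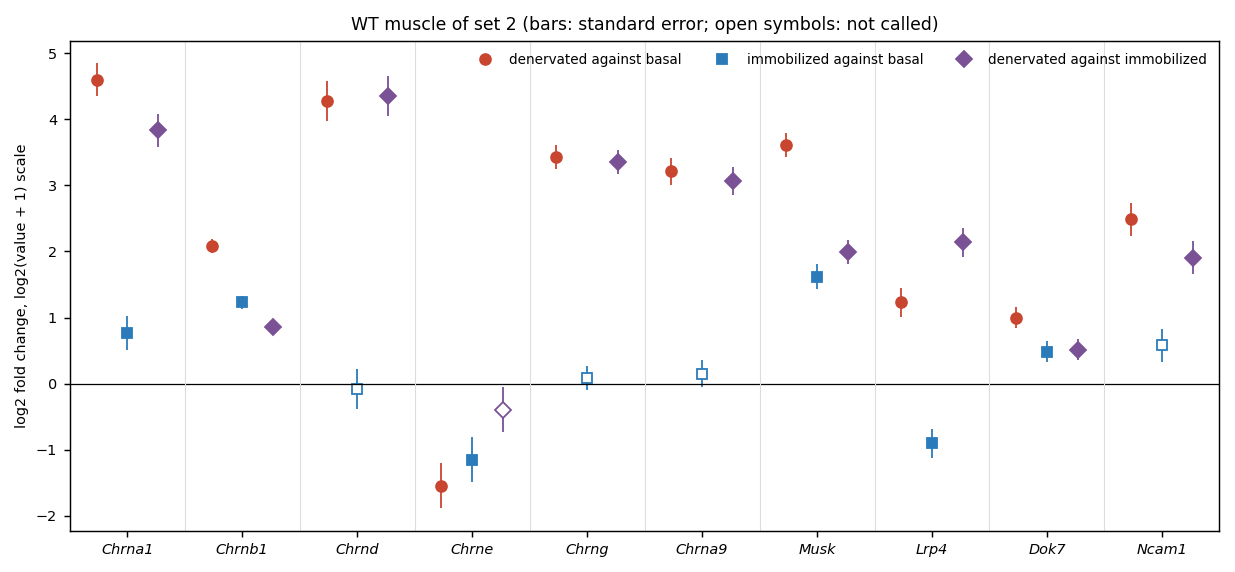
Log2 fold changes on the log2(value + 1) scale in WT muscle of set 2 for denervated against basal, immobilized against basal and denervated against immobilized muscle, with bars for the standard error and open symbols for comparisons that were not called. Lrp4 lies above 0 for denervation (1.23) and below it for immobilization (-0.90), and Chrne lies below 0 in all 3 comparisons.

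Divided by exon length, Chrng made up 0.420% ± 0.213 of the sum of Chrng and Chrne in basal WT muscle (SD, n = 4), 3.08% ± 3.86 in immobilized muscle and 65.7% ± 4.32 in denervated muscle. The denervated libraries ranged from 61.4% to 70.9%, and the highest of the others in either set was 13.8%, an immobilized Sesn2SkM-Tg library. The share was 65.2 percentage points higher in denervated than in basal muscle and 62.6 points higher than in immobilized muscle (two-sided exact permutation tests, p = 0.0286 each, adjusted over the 3 shares tested 0.0286, the smallest that 4 against 4 libraries can give). With coding lengths these differences were 77.7 and 72.9 points, and with no division by length 81.4 and 75.5 points. Every denervated library was higher for Chrng and lower for Chrne than every basal one. The share against basal muscle therefore had to separate, and its p-value adds no support beyond the values of the genes. Immobilized exceeded basal muscle by 2.66 points, also with p = 0.0286 in the exact permutation test. That last difference rests on Chrng values near the floor and on the fall of Chrne, and it came to 4.76 points with coding lengths and 5.89 points with no division by length. Without immobilized replicate 4, whose share was 8.85%, it was 0.733 points. WT muscle of set 1 went the other way, with immobilized libraries (0.580% to 1.38%) all below basal ones (2.46% to 3.47%), which was not tested. In the other groups the mean share was 0.266% in basal and 2.73% in immobilized Sesn1KO muscle, 2.96% and 0.996% in WT muscle of set 1, 0.473% and 2.39% in Sesn1SkM-Tg muscle, and 2.02% and 5.84% in Sesn2SkM-Tg muscle.

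**Figure D3:**
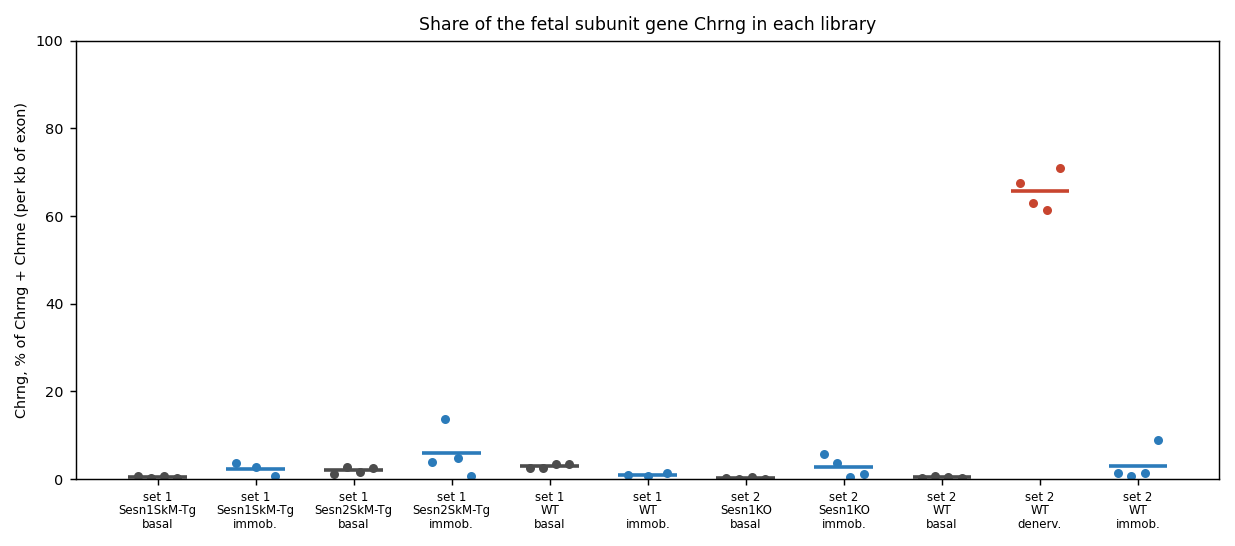
Share of Chrng in Chrng plus Chrne, in percent of values per kilobase of exon, in each of the 42 libraries of the 11 groups, with 1 point for each library and a line at the group mean. The 4 denervated libraries lie between 61.4% and 70.9% and all other libraries at or below 13.8%.

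Chrna9 encodes the alpha9 subunit, known best from the hair cells of the inner ear. It measured 0.335, 0.0566, 0.0467 and 0.0574 in basal WT muscle and 0.320, 0.0672, 0.0748 and 0.563 in immobilized WT muscle of set 2, where at most 6.25% of genes were lower. In denervated muscle it reached 9.01, 11.4, 7.26 and 10.2, so that it lay with Chrng among the middle of all genes (43.4% to 51.8% lower). The log2 fold change with denervation was 3.21 (SE 0.21, adjusted p = 5.2e-11) and with immobilization 0.15 (95% interval -0.28 to 0.58, adjusted p = 0.62). Unlike Chrng, it was called higher with immobilization in some other genotypes, described further on. Of the 10 remaining nicotinic subunit genes in a list of the family, 3 are rows of the table (Chrna2, Chrna4 and Chrna10). None of the 3 was higher under either condition, and Chrna4 and Chrna10 were lower under both. Chrna10, the usual partner of alpha9, measured 12.5 ± 0.71, 8.94 ± 1.05 and 3.63 ± 0.76 in basal, immobilized and denervated muscle (SD, n = 4 each), a log2 fold change of -1.56 with denervation (adjusted p = 2.4e-08).

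Musk, the kinase that starts receptor clustering, rose under both conditions and more with denervation. Its values were 5.39, 4.39, 5.65 and 7.16 in basal muscle, 17.6, 17.1, 17.6 and 25.6 after immobilization and 77.2, 95.4, 77.1 and 70.6 after denervation, and the 3 groups did not overlap. The log2 fold changes were 1.62 (SE 0.18, adjusted p = 1.2e-06) with immobilization and 3.61 (SE 0.18, adjusted p = 2.3e-12) with denervation, 3.45-fold and 14.2-fold by the ratio of means, and they differed by 2.00 (adjusted p = 3.6e-08).

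Lrp4, the agrin receptor that acts on MuSK, was the only gene of the 10 called in opposite directions by the conditions. It measured 11.9, 13.2, 11.0 and 7.89 in basal muscle, 5.30, 4.15, 4.76 and 7.51 in immobilized muscle, and 30.003, 32.3, 24.4 and 21.7 in denervated muscle. Every immobilized library lay below and every denervated library above the basal range, although immobilized replicate 4 came close to it. Lrp4 fell to 0.494 of the basal mean with immobilization (-0.90, SE 0.22, adjusted p = 0.0027) and rose 2.46-fold with denervation (1.23, SE 0.22, adjusted p = 5.7e-05). Denervated muscle was 4.99-fold higher than immobilized muscle (2.14, adjusted p = 1.4e-07). When all libraries were scaled to the same sum, the direction of either change held.

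Dok7, the adaptor that activates MuSK from inside the fiber, moved least of the genes that were higher with denervation. Its values were 16.9, 15.9, 16.3 and 19.5 in basal muscle, 25.4, 32.6, 23.4 and 18.05 after immobilization and 41.9, 36.8, 31.6 and 31.4 after denervation. The denervated libraries were above all basal ones, and the immobilized libraries overlapped both groups. The log2 fold change was 1.00 (SE 0.16, adjusted p = 2.2e-05) with denervation and 0.49 (SE 0.16, adjusted p = 0.025) with immobilization. The latter call was lost without basal replicate 2 (0.45) or 3 (0.46) and without immobilized replicate 1 (0.47) or 2 (0.35). The difference between the conditions, 0.51 (adjusted p = 0.016), was lost without denervated replicate 1 (0.43) or immobilized replicate 4 (0.38).

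Ncam1, an adhesion molecule of the synapse that is also made by satellite cells and by denervated fibers, measured 1.22, 2.52, 2.21 and 3.91 in basal, 4.78, 3.83, 4.88 and 2.73 in immobilized, and 25.2, 21.03, 16.4 and 11.1 in denervated muscle. Only the denervated libraries were clear of the others. Ncam1 rose 7.47-fold with denervation (2.49, SE 0.25, adjusted p = 4.5e-08), and its log2 fold change with immobilization was 0.58 (95% interval 0.05 to 1.10, adjusted p = 0.084). That change was called without basal replicate 4 (0.76), without immobilized replicate 4 (0.72) and when libraries were scaled to the same sum (0.67). Exons of Ncam1 overlap those of the antisense gene Gm11149, and the library kit named in the methods does not mark strand, so reads of the pair cannot be told apart. Among the denervated libraries, replicate 4 was the lowest for Chrna1, Chrnd, Chrne, Chrng, Musk, Lrp4, Dok7 and Ncam1.

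Levels between genes were compared per kilobase of exon. The order and the overlaps depend on the length used, and they were not worked out with coding lengths. Chrna1 had 4.386 kb of exon and 1.371 kb of coding sequence, and Chrnb1 had 2.531 kb and 1.503 kb. In basal WT muscle of set 2 Chrnb1 had the highest level (9.30 ± 1.38 per kb, SD, n = 4), followed by Chrne (5.42 ± 2.26) and Dok7 (4.01 ± 0.38), although neighbours in this order overlapped. Chrna1 (1.57), Musk (1.50) and Lrp4 (1.05) came next and overlapped in turn, then Chrnd (0.476) and Ncam1 (0.285), while Chrna9 (0.0409) and Chrng (0.0213) were the lowest. In denervated muscle Chrna1 (44.0 ± 12.9) and Chrnb1 (40.4 ± 2.56) overlapped at the top, followed by Musk (21.2), Chrnd (14.8) and Dok7 (8.28), and Chrne was the lowest of the 10 (1.44 ± 0.56). The 5 genes from Chrna9 (3.14) through Chrng, Lrp4 and Ncam1 down to Chrne each overlapped the next. In immobilized muscle the order stayed closer to that of basal muscle, with Chrnb1 (22.3), Dok7 (5.81) and Musk (5.16) ahead of Chrna1 (2.81) and Chrne (2.34).

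Other genes of the junction were read from lists of its parts. Of 20 genes for clustering and synapse signalling that were tested, 11 were higher and 3 lower with denervation, 5 and 4 with immobilization, and 8 and 1 in denervated against immobilized muscle. The list's median log2 fold changes were 0.38, 0.16 and 0.14. Over all genes tested, 27.8% were higher and 27.7% lower with denervation, 16.2% and 17.7% with immobilization, and 20.5% and 18.4% in denervated against immobilized muscle, with medians of -0.03, -0.02 and -0.02, and the counts of each list below are read against these shares. Rapsn, the gene of rapsyn, measured 23.2 ± 3.6, 29.9 ± 2.4 and 42.8 ± 2.0 in basal, immobilized and denervated muscle (SD, n = 4 each) and rose in all 3 comparisons (0.87, 0.36 and 0.50, adjusted p at most 0.036). Agrn, the gene of agrin, was not called with denervation (-0.31, adjusted p = 0.16) or immobilization (-0.23, adjusted p = 0.38). Pak1, a kinase of the actin cytoskeleton, shared the pattern of Lrp4, falling with immobilization (-1.18) and rising with denervation (0.62), at means of 26.2, 10.7 and 40.3. Ctnnb1, beta-catenin, was 0.66 higher and Hsp90b1, a chaperone of the endoplasmic reticulum, 0.61 higher in denervated than in immobilized muscle. Ufsp1 was lower in both conditions (-1.88 with denervation, -0.87 with immobilization). Rapsn and Agrn were chosen after their values were seen.

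Of 16 genes of the synaptic basal lamina and cleft, 11 were lower and 2 higher with denervation (median -0.86), where 27.7% of all genes were lower. With immobilization in set 2, 7 were lower and 0 higher in WT muscle (median -0.35) and 7 lower and 1 higher in Sesn1KO muscle (median -0.37), where 17.7% and 19.9% of all genes were lower. In set 1, 5 were lower and 1 higher in WT (median 0.14) and 1 lower and 6 higher in Sesn1SkM-Tg muscle (median 0.30). In Sesn2SkM-Tg muscle 4 were lower and 1 higher (median -0.05). Over all genes, 14.5%, 16.5% and 15.7% were lower and 14.9%, 18.2% and 15.0% higher, in the same order of genotypes. Whether the genotypes differ was not tested for the list. Ache, acetylcholinesterase, which breaks down the transmitter, dropped from 41.6 ± 13.6 in basal to 14.2 ± 3.53 in immobilized and 3.32 ± 1.55 in denervated muscle (SD, n = 4 each), a log2 fold change of -1.47 with immobilization (adjusted p = 0.00021) and of -3.33 with denervation (adjusted p = 1.2e-09). The laminin genes Lamc1 and Lama2 were 1.06 and 1.04 lower on the log2 scale in denervated than in immobilized muscle, and Lama5, found in the synaptic basal lamina, was 0.47 higher, a call lost without denervated replicate 2 (0.41) or immobilized replicate 3 (0.39). Col4a5 was 0.62 higher (adjusted p = 0.022), a call lost without denervated replicate 1 (0.48) or immobilized replicates 1 (0.44) or 4 (0.54), and its means were at most 1.77. Colq, which anchors the enzyme, was not called (-0.89 with denervation, adjusted p = 0.066), and was chosen after its values were seen.

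Among 17 genes of the postsynaptic scaffold and membrane, denervation left 7 higher and 5 lower and immobilization 8 higher and 1 lower, and 3 were higher and 6 lower in denervated than in immobilized muscle. The shares over all genes were 27.8% higher and 27.7% lower with denervation, 16.2% and 17.7% with immobilization, and 20.5% and 18.4% in denervated against immobilized muscle. Itga7, a laminin-binding integrin, rose more with immobilization (1.50) than with denervation (0.44), and was 1.05 lower on the log2 scale in denervated than in immobilized muscle, at means of 79.6, 227 and 112 in basal, immobilized and denervated muscle. Kcnn3, a small-conductance potassium channel known to appear in denervated fibers, rose with denervation from 1.97 ± 0.53 to 49.1 ± 10.1 (4.07, adjusted p = 5.8e-12) and with immobilization to 6.79 ± 0.92 (1.40, adjusted p = 5.7e-05). Macf1, which links the cytoskeleton to the synapse, rose in both, at means of 66.5, 107 and 191. The scaffold gene Utrn, utrophin, chosen after its values were seen, did not differ by the test in any of the 3 comparisons (0.04, -0.05 and 0.09).

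Of 17 transcription regulators of receptor genes, 7 were higher and 6 lower with denervation, 6 higher and 3 lower with immobilization, and 7 higher and 4 lower in denervated against immobilized muscle. The corresponding shares over all genes were 27.8% and 27.7%, 16.2% and 17.7%, and 20.5% and 18.4%. Myog, which encodes myogenin, measured 1.22 ± 0.35 in basal, 3.06 ± 1.49 in immobilized and 104 ± 16.2 in denervated muscle, a log2 fold change of 0.81 with immobilization (adjusted p = 0.014) and of 5.57 with denervation (adjusted p = 2.3e-13). Runx1 went from 1.52 to 10.0 and 98.2 (2.11 and 5.28). Myod1, in contrast, fell with immobilization (-0.67, adjusted p = 0.012) and rose with denervation (2.23, adjusted p = 6.3e-09). The deacetylase genes moved apart, since Hdac9 (-1.91) and Hdac5 (-1.11) fell with denervation and Hdac4, chosen after its values were seen, rose (2.04), and with immobilization Hdac4 rose by 0.98 while Hdac9 (-0.10) and Hdac5 (0.00) were not called. Dach2, a corepressor also chosen after its values were seen, fell under both conditions (-2.35 and -1.73) from a mean of 7.55. Mef2c was higher in immobilized (965) than in denervated muscle (590) or basal muscle (465), but its fall in denervated against immobilized muscle (-0.71) was not called after quantile normalization (-0.18).

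In the list of receptor assembly and turnover, 8 of 11 genes were higher and 1 lower with denervation and 5 higher and 0 lower with immobilization, against 27.8% and 16.2% of all genes higher. The endoplasmic reticulum chaperones Canx (77.9, 123 and 215 in basal, immobilized and denervated muscle) and Calr (104, 151 and 215) rose in both, and were higher in denervated than in immobilized muscle by 0.81 and 0.51. Sh3glb1 was 0.45 higher and Cav3, caveolin 3 of the fiber membrane, 0.59 lower in denervated than in immobilized muscle, though Cav3 was not called when scaled to the same sum (-0.26).

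Markers of other cells were counted in the same way, and their part in the changes of the 10 genes was not tested. Over all genes, 27.8% were higher and 27.7% lower with denervation, and 16.2% and 17.7% with immobilization. The counts of these short lists were not tested against those shares. Of 12 Schwann cell markers, 2 were higher and 4 lower with denervation and 1 higher and 0 lower with immobilization. Their summed level ran from 36.1 to 57.0 (median 49.3) in basal, 28.6 to 40.8 (median 34.6) in immobilized and 24.1 to 31.2 (median 25.4) in denervated WT libraries. S100b was under 1 in every denervated library. Egr2 and Ncmap were under 1 in every denervated and every basal library. Ngfr, a receptor of Schwann cells that have lost their axons, rose (1.13), and Prx, of myelinating cells, fell (-1.71). The 10 motor nerve terminal markers that were looked up were not analysed here. Of 8 satellite cell markers 2 rose and 3 fell with denervation, and their sum ran from 129 to 142 in denervated against 86.0 to 96.0 in basal and 86.8 to 107 in immobilized libraries. Cdh15 (1.65) and Sdc4 (1.34) rose and Cd34 fell (-0.84), while Pax7 was not called. Of 7 macrophage and leukocyte markers 2 rose and 1 fell with denervation and 2 rose and 0 fell with immobilization, with sums of 27.8 to 138 in basal, 96.8 to 187 in immobilized and 40.6 to 109 in denervated libraries. The macrophage genes Lyz2 (-1.56) and Csf1r (-1.15) were lower and the neutrophil gene S100a8 (1.47) higher in denervated than in immobilized muscle. Leaving out denervated replicates 3 or 4 or immobilized replicates 1 or 4 ended the calls of Lyz2 (-1.46 to -1.35) and Csf1r (-1.09 to -0.94), and leaving out denervated replicate 3 ended that of S100a8 (1.15). Scaling libraries to the same sum also ended the calls of Lyz2 (-1.23) and Csf1r (-0.84). Of 7 fibroblast markers 4 fell with denervation and 0 were called with immobilization, with sums of 458 to 735 in basal, 482 to 1375 in immobilized and 308 to 495 in denervated libraries. Pdgfra (-1.07), Dcn (-0.87) and Ly6a (-0.69) were lower in denervated than in immobilized muscle. The Ly6a call was lost without denervated replicates 3 or 4 or immobilized replicate 3 (-0.60 to -0.52). It was also lost when libraries were scaled to the same sum (-0.37). The labelled muscle fibers were present throughout, as the sum of 10 fiber markers, led by Acta1, Ckm and myosin genes, was at least 57625 in every library. All 10 fiber markers were lower with denervation (median -1.09), with sums of 57625 to 74378 against 138123 to 152453 in basal muscle, and 3 were lower and 2 higher with immobilization. The myosin genes Myh2 (-3.71), Myh1 (-2.11) and Myh4 (-1.39) fell most in denervated against immobilized muscle.

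The genes that followed Chrna1, Musk and Chrne most closely were taken over the 20 libraries of set 2, from 13629 genes tested, by Pearson's r of log2(value + 1). The libraries share their groups, so r mostly follows the group means, and it is given as a description. Closest to Chrna1 were Samd8 (r = 0.979, from 61.6 in basal to 204 in denervated muscle), Nrcam (0.978, from 0.202 to 10.4) and Fgf13 (0.975, from 26.8 to 75.0). Each of these 3 had close basal and immobilized means, as 26.8 and 29.6 for Fgf13. Closest to Musk were Zwint (0.982), Sik1 (0.978) and Rpl3 (0.977), whose means rose in steps as those of Musk did, for Sik1 from 4.87 in basal to 17.2 in immobilized and 71.7 in denervated muscle. Closest to Chrne were Ppm1j (0.891), Mfap3l (0.884) and Tbx15 (0.883), and Mfap3l had means of 9.31, 4.03 and 3.89.

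Immobilization was measured again in set 1 and in Sesn1KO muscle of set 2. The comparisons are of immobilized against basal muscle within a genotype. In WT muscle of set 1, 5 of 10 genes were called, 4 higher and 1 lower, where 29.3% of 13705 genes were (14.9% higher and 14.5% lower). In Sesn1SkM-Tg muscle 4 were called, 3 higher and 1 lower, where 34.7% of all genes were (18.2% and 16.5%), and in Sesn2SkM-Tg muscle 5, 3 higher and 2 lower, where 30.7% were (15.0% and 15.7%). In Sesn1KO muscle 7 were called, 5 higher and 2 lower, where 37.1% of 13629 genes were (17.2% and 19.9%). The count in WT muscle of set 1 was 3 with only its own libraries in the fit. The medians of the 10 genes were 0.86, 0.18, 0.05 and 0.47, against 0.00, -0.01, 0.00 and -0.03 over all genes. With all libraries scaled to the same sum, the median over all genes rose by 0.27, 0.26, 0.25 and 0.09, and the share of calls that were higher went from 50.7% to 84.7%, 52.3% to 82.6%, 48.9% to 80.4% and 46.4% to 60.1%.

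**Figure D4:**
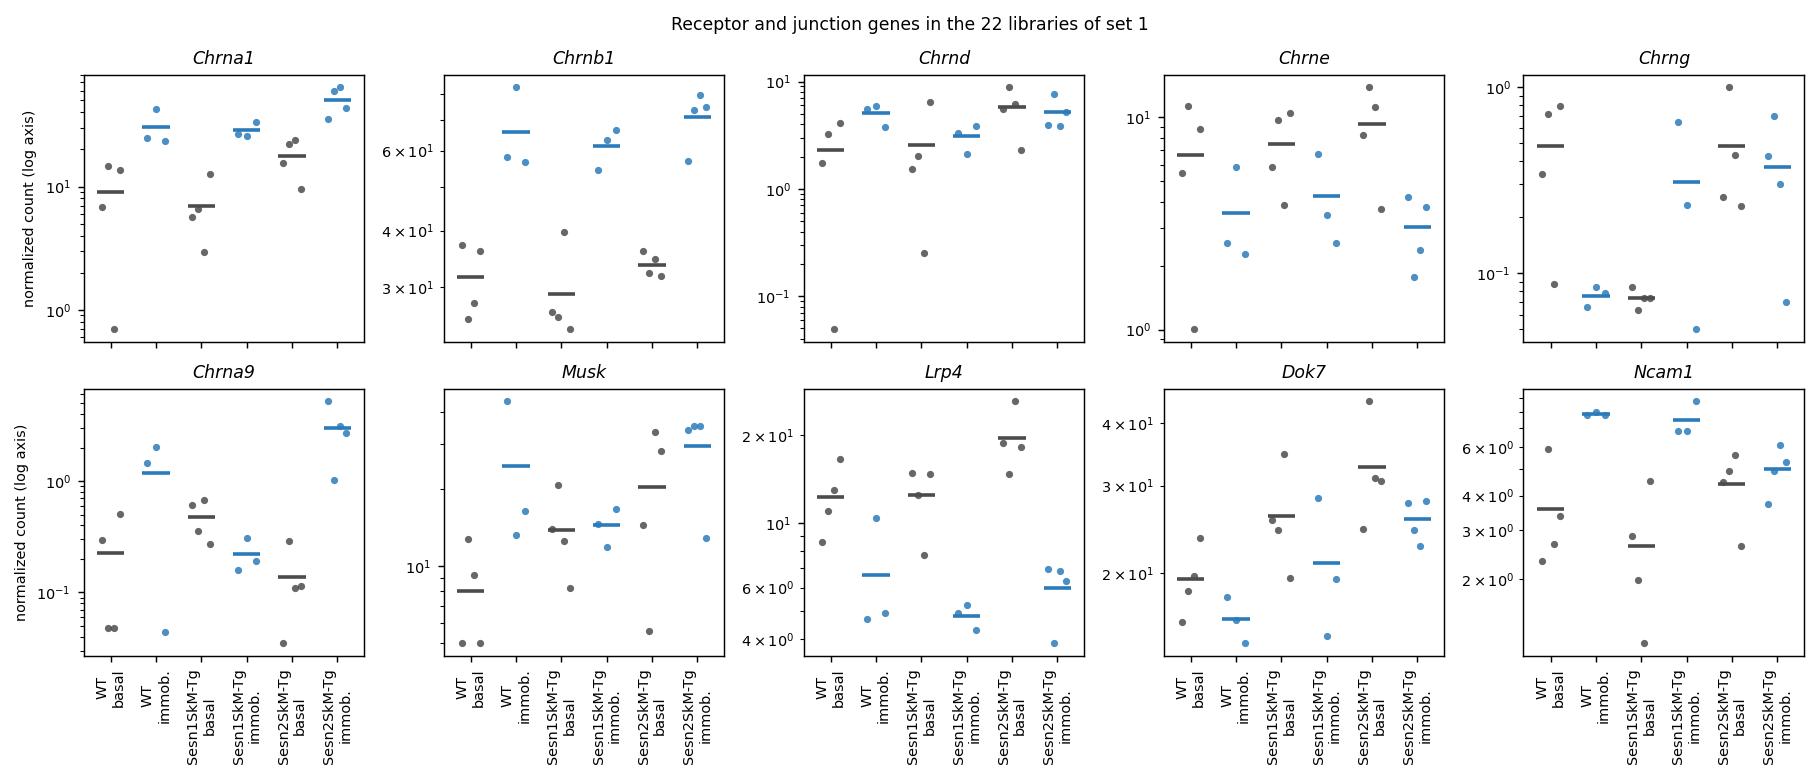
Normalized counts (log axes) of the 10 genes in the 22 libraries of set 1, with 1 point for each library and a line at the group mean for basal and immobilized muscle of WT, Sesn1SkM-Tg and Sesn2SkM-Tg mice. Immobilized libraries lie above all basal libraries of their genotype for Chrna1 and Chrnb1 and, apart from a WT library, below them for Lrp4.

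Chrnb1 and Lrp4 were called in all 5 comparisons of immobilized with basal muscle. Chrnb1 rose with log2 fold changes of 1.03 (WT, set 1), 1.08 (Sesn1SkM-Tg), 1.05 (Sesn2SkM-Tg), 1.23 (WT, set 2) and 1.21 (Sesn1KO), with adjusted p at most 0.00031. In WT muscle of set 1 it measured 37.2, 25.5, 27.7 and 36.1 in basal and 58.1, 83.0 and 56.5 in immobilized libraries, and in Sesn1KO muscle 25.0, 26.0, 25.8 and 24.5 against 56.1, 60.1, 68.9 and 55.8. No immobilized library overlapped the basal ones in any of the 5 comparisons. Lrp4 fell by 0.84, 1.17, 1.55, 0.90 and 1.27 on the log2 scale in the same order. In Sesn2SkM-Tg muscle it went from 18.8, 14.7, 26.2 and 18.1 to 6.97, 3.87, 6.83 and 6.34. In WT muscle of set 1 it went from 8.60, 11.0, 13.0 and 16.6 to 4.69, 10.4 and 4.90, where 1 immobilized library lay within the basal range. The call in WT muscle of set 1 (adjusted p = 0.021) was lost without basal replicate 4 (-0.69) or immobilized replicates 1 (-0.66) or 3 (-0.69), when the fit held only the groups compared (adjusted p = 0.067) and when libraries were scaled to the same sum (-0.54).

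Chrna1 was called in 4 of the 5. It rose by 2.02 in WT muscle of set 1 (adjusted p = 0.0079), by 2.03 in Sesn1SkM-Tg (adjusted p = 0.0061) and by 1.50 in Sesn2SkM-Tg muscle (adjusted p = 0.025), more than the 0.77 in WT muscle of set 2, a difference that was not tested because the sets were fitted apart. In set 1 the basal WT libraries measured 6.82, 14.6, 0.693 and 13.7 and the immobilized ones 24.7, 42.5 and 23.3. Basal replicate 3 stood apart there, and was also the lowest for Chrnd (0.0490 against 1.75 to 4.07) and Chrne (1.00 against 5.47 to 11.4), but not for Musk (9.24) or Dok7 (19.8). Without it the Chrna1 change was 1.31 and still called, Chrnd changed from 1.09 to 0.62 and Chrne from -0.55 to -1.10, neither called with or without it. The Sesn2SkM-Tg call of Chrna1 was lost at lower pseudocounts (adjusted p = 0.059 with 0.1 and 0.068 with 0) and without basal replicates 1 (1.46) or 4 (1.25) or immobilized replicates 2 (1.41) or 3 (1.37). With only WT muscle of set 1 in the fit, the WT call was lost (adjusted p = 0.058). In Sesn1KO muscle Chrna1 measured 8.83, 10.4, 8.24 and 13.5 in basal and 6.83, 19.1, 7.62 and 8.34 in immobilized libraries, and did not differ by the test (-0.06, 95% interval -0.58 to 0.46, adjusted p = 0.88).

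**Figure D5:**
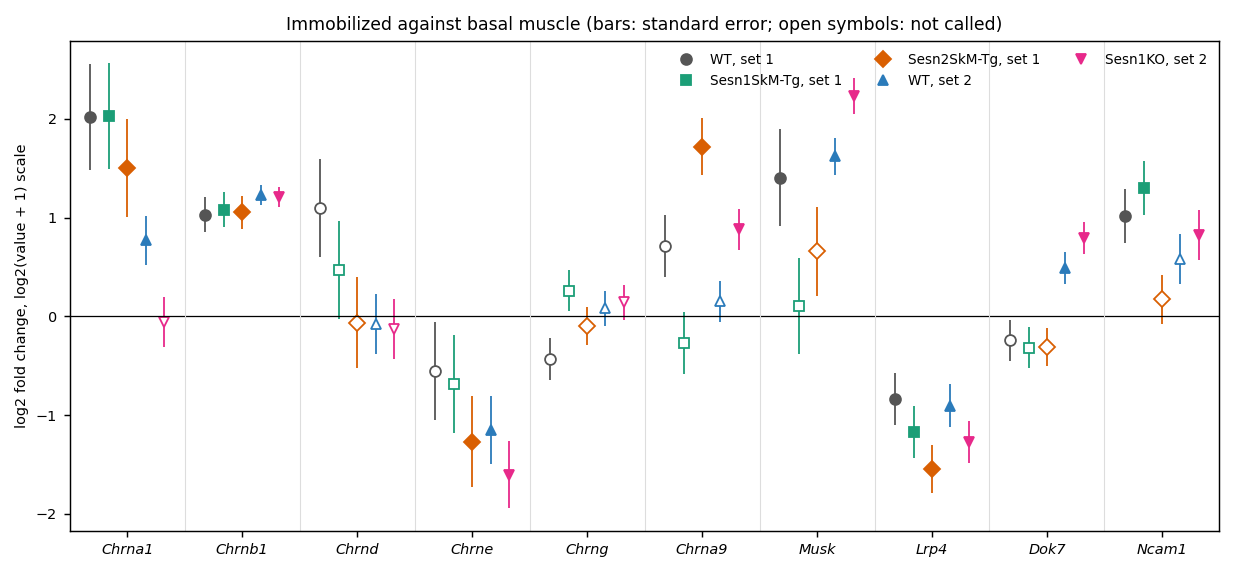
Log2 fold changes of immobilized against basal muscle on the log2(value + 1) scale in the 5 genotypes and sets, with bars for the standard error and open symbols for comparisons that were not called. Chrnb1 lies between 1.03 and 1.23 and Lrp4 between -1.55 and -0.84 in all 5, while Musk spreads from 0.11 in Sesn1SkM-Tg to 2.23 in Sesn1KO muscle.

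Musk rose with immobilization in WT muscle of both sets and in Sesn1KO muscle. In Sesn1KO muscle it measured 6.18, 7.54, 4.89 and 5.81 in basal and 47.5, 34.0, 22.8 and 28.4 in immobilized libraries, a log2 fold change of 2.23 (SE 0.18, adjusted p = 1.2e-08). In WT muscle of set 1 it measured 4.98, 12.7, 9.24 and 4.999 in basal and 44.1, 13.2 and 16.3 in immobilized libraries (1.40, SE 0.49, adjusted p = 0.035), a call lost without basal replicate 1 (1.24) or 4 (1.24) or immobilized replicate 1 (0.89) or 3 (1.58). In Sesn1SkM-Tg muscle basal libraries were already at 13.9, 20.7, 12.5 and 8.19 and immobilized ones at 14.6, 11.9 and 16.7 (0.11, 95% interval -0.91 to 1.12, adjusted p = 0.89). In Sesn2SkM-Tg muscle both states spread widely, from 5.57 to 33.4 in basal and from 12.8 to 35.2 in immobilized libraries (0.66, adjusted p = 0.29). Dok7 was higher with immobilization in Sesn1KO muscle (0.79, SE 0.16, adjusted p = 0.00061), as it was in WT muscle of set 2, but in set 1 its log2 fold changes were -0.24, -0.32 and -0.31 in WT, Sesn1SkM-Tg and Sesn2SkM-Tg muscle and not called.

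Chrne was lower in immobilized Sesn1KO muscle, at 1.98, 3.22, 4.22 and 2.53 against 10.2, 14.3, 8.36 and 11.3 in basal libraries (-1.60, SE 0.34, adjusted p = 0.00085). It was also lower in Sesn2SkM-Tg muscle (-1.27, adjusted p = 0.040), a call lost without any of basal replicates 1 to 3 or immobilized replicates 2 to 4 (-1.37 to -1.05), with a pseudocount of 0 (-1.53) and when scaled to the same sum (-1.02). In WT and Sesn1SkM-Tg muscle of set 1 its log2 fold changes were -0.55 and -0.69, not called, with overlapping libraries. Chrna9 rose with immobilization in Sesn2SkM-Tg muscle, from 0.0349, 0.287, 0.110 and 0.115 to 5.27, 1.02, 3.09 and 2.71 (1.72, SE 0.29, adjusted p = 0.00015), and in Sesn1KO muscle, from 0.0441, 0.201, 0.0465 and 0.0444 to 0.544, 2.28, 0.651 and 0.902 (0.88, SE 0.21, adjusted p = 0.0019). In both, each immobilized library exceeded each basal one, yet all stayed below the denervated WT libraries (7.26 to 11.4, from set 2). In WT muscle of set 1, 2 immobilized libraries were at 1.46 and 2.01 and the third at 0.0438, and the change of 0.71 was not called (adjusted p = 0.090), but it was without that library (1.17) and when scaled to the same sum (0.82).

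Ncam1 rose with immobilization in WT muscle of set 1 (1.02, adjusted p = 0.0082), from 2.34, 5.87, 2.67 and 3.39 to 7.80, 7.99 and 7.80, in Sesn1SkM-Tg muscle (1.30, adjusted p = 0.0012) and in Sesn1KO muscle (0.82, adjusted p = 0.014). The last call was lost without immobilized replicate 1 (0.65). In Sesn2SkM-Tg muscle its log2 fold change was 0.17 (adjusted p = 0.64). Chrnd and Chrng were called in none of the 5 comparisons. Chrng stayed at or below 1.00 in every innervated library of both sets. Chrnd ranged from 3.75 to 5.95 in immobilized WT muscle of set 1 against 0.0490 to 4.07 in basal muscle (1.09, adjusted p = 0.10), and it was called without basal replicate 4 (1.38) and when scaled to the same sum (1.35). Markers of leukocytes moved with immobilization in set 1, where 5 of 7 were higher in WT, 7 in Sesn1SkM-Tg and 4 in Sesn2SkM-Tg muscle, and their sum in WT muscle ran from 154 to 359 in immobilized against 33.2 to 49.1 in basal libraries. Of 7 fibroblast markers 4, 7 and 1 were higher. Schwann cell markers were higher in 4, 7 and 7 of 12 and lower in 0, and fiber markers were lower in 4, 4 and 5 of 10 and higher in 0, 1 and 0, in the same order of genotypes. Over all genes, 14.9%, 18.2% and 15.0% were higher and 14.5%, 16.5% and 15.7% lower. The part of these markers in these changes was not tested.

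The genotypes were compared with WT muscle of their set and state. In these comparisons the sestrin level cannot be told apart from other differences between the mouse lines. In none of the 6 comparisons was any of the 10 genes called by limma, where 0.0292% of all genes were called for Sesn1SkM-Tg basal, 0.0073% for Sesn1SkM-Tg immobilized, 2.5% for Sesn2SkM-Tg basal, 2.94% for Sesn2SkM-Tg immobilized, 0.147% for Sesn1KO basal and 0.947% for Sesn1KO immobilized muscle. At an unadjusted p under 0.05 there were 1, 1, 5, 3, 0 and 2 of the 10. The nearest to a call was Dok7 in basal Sesn2SkM-Tg muscle, at 24.6, 44.4, 31.1 and 30.7 against 16.0, 18.5, 19.8 and 23.6 in WT (0.70, 95% interval 0.30 to 1.10, adjusted p = 0.055). It was called without basal Sesn2SkM-Tg replicate 1 (0.82) or basal WT replicate 4 (0.79) and when scaled to the same sum (0.65). In immobilized muscle the difference was 0.63 (adjusted p = 0.095), with all 4 Sesn2SkM-Tg libraries (22.7 to 28.0) above all 3 WT libraries (14.5 to 17.9), and called when the fit held only the groups compared (adjusted p = 0.048).

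Musk in immobilized Sesn1KO against WT muscle differed by 0.71 (95% interval 0.33 to 1.09, adjusted p = 0.068), with 3 of 4 Sesn1KO libraries above every WT library. It was called without Sesn1KO replicate 3 (0.86) or 4 (0.76) or without WT replicate 4 (0.84). Chrna9 was 0.69 higher in immobilized Sesn1KO (adjusted p = 0.12) and 0.91 higher in immobilized Sesn2SkM-Tg muscle (adjusted p = 0.11), neither called, although the latter was without Sesn2SkM-Tg replicate 2 (1.21). Whether immobilization acted differently in a genotype than in WT was tested as an interaction. None of the 10 genes was called for Sesn1SkM-Tg (0.0% of all genes), Sesn2SkM-Tg (0.0073%) or Sesn1KO (0.022%), and 2, 2 and 3 had an unadjusted p under 0.05. The interaction for Chrna1 in Sesn1KO muscle was -0.83 (95% interval -1.57 to -0.09, adjusted p = 0.57), for Musk in Sesn1SkM-Tg muscle -1.30 (-2.73 to 0.14, adjusted p = 1) and for Musk in Sesn1KO muscle 0.61 (0.07 to 1.15, adjusted p = 0.57). Calls in one genotype and not in another are therefore not shown to differ.

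The library that was the extreme of its group for Chrna1 was also the extreme for some junction genes in many groups, and for others in few. Over the 11 groups, the library with the lowest Chrna1 was also the lowest for Chrne in 9, for Chrnd in 8 and for Dok7 and Ncam1 in 5 each. For Chrnb1 it was so in 4, for Chrng, Chrna9 and Musk in 3 each and for Lrp4 in 2. The library with the highest Chrna1 was the highest for Ncam1 in 8 groups, for Chrnd in 6 and for Chrne and Musk in 5 each. For Chrnb1 it was so in 4, for Chrna9 and Lrp4 in 3 each, for Chrng in 2 and for Dok7 in 1. With 3 or 4 libraries in a group some sharing arises by chance, and that rate was not worked out. This is a description over libraries that share the same tissue sample for all genes.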

How the data were processed

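The deposited table holds 42 columns of normalized read counts per gene, a linear signal whose values were, per the study's methods and the submitters' processing notes, made by the authors from reads checked with FastQC, trimmed with Cutadapt 1.7.1 and quantified on GRCm38 with RSEM 1.2.20, with normalization by edgeR and limma. The NEBNext Ultra kit of the methods does not mark strand. Depth per library is not given in the sources used here, so counts of reads, and with them any counting error, are unknown. All columns matched a sample. The lowest value was 0.00476. Of the 13809 genes 13715 matched GENCODE M21, which gave positions and exon lengths.

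Each set was fitted with limma 3.58.1 (R 4.3.3) on log2(value + 1) of the genes that reached 1 in any of its libraries, with 1 coefficient per group, eBayes with trend and Benjamini-Hochberg adjustment. Calls were made at an adjusted p under 0.05 where the log2 fold change was 0.25 or more in size. Shares were tested by exact permutation (scipy 1.17.1). The alternatives were pseudocounts of 0.1 and 0, other filters on low values, scaling all libraries to the same sum, quantile normalization, eBayes without trend, a fit of the compared groups alone, the replicate number as a block, and each library left out in turn. The fit was tested on simulated data. The members and lists were chosen with earlier results of these data known. Named were all members, from each list up to 3 genes in either direction with the largest change among those called in denervated against immobilized WT muscle, and the 3 genes most correlated with Chrna1, Musk and Chrne. Genes selected by this rule are not all reported here. Chrna2, Chrna4, Gabpa, S100b, Egr2 and Pax7 and the genes marked so in the text were chosen after their values were seen. Same-numbered libraries did not deviate together, so numbers were not treated as pairs.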

Additional observations from a re-analysis of the deposited data

Results flagged for a closer look

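Within the groups of 4 libraries, a value far from the other 3 (gap over range above Dixon's 95% limit) was found in 7 of 90 gene and group combinations, where chance gives about 1 in 20. In immobilized Sesn1KO muscle, replicate 2 was the highest for both Chrna1 (19.1, against 6.83 to 8.34 in the others) and Chrnd (5.65, against 0.879 to 1.66). In immobilized WT muscle of set 2, replicate 4 was the highest for Musk (25.6, against 17.1 to 17.6), and in immobilized Sesn2SkM-Tg muscle replicate 4 was the lowest for Musk (12.8, against 33.9 to 35.2). Chrnb1 was highest in replicate 3 of basal Sesn1SkM-Tg muscle (39.8, against 24.2 to 26.4). Chrna9 was highest in replicate 1 of basal WT muscle of set 2 (0.335) and in replicate 2 of basal Sesn1KO muscle (0.201), both values near the low edge of the table.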

How the results depend on the processing

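The counts of called members kept within 1.5 times their value under the other settings tried, with the exceptions given here. Within that limit, the count of 6 for immobilized against basal WT muscle of set 2 ran from 4 to 7 with 1 library left out. In WT muscle of set 1, immobilized against basal, 3 of 10 were called in place of 5 when the fit held only the groups compared, and between 3 and 5 with 1 library left out, 3 without immobilized replicate 1. In Sesn2SkM-Tg muscle the count was 3 in place of 5 with a pseudocount of 0 and between 3 and 5 with 1 library left out, 3 without basal replicate 1 or immobilized replicates 2 or 3. Sesn2SkM-Tg against WT gave 1 in place of 0 in basal muscle when scaled to the same sum and in immobilized muscle with only the compared groups, and between 0 and 1 in either with 1 library left out. Sesn1KO against WT in immobilized muscle gave 0 to 1. With 1 library left out the Chrng share differed by 60.8 to 64.5 points between denervated and immobilized, by 63.5 to 66.7 between denervated and basal and by 0.733 to 3.42 between immobilized and basal muscle, where 3 against 4 libraries cannot go below an exact permutation p of 0.0571.

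Replicate numbers did not mark pairs. Deviations of same-numbered libraries correlated at 0.0098 on average in set 1 and -0.018 in set 2, and 6 of 22 and 4 of 20 libraries correlated best with their own number. With the replicate block the shares differed by 62.6, 65.2 and 2.66 points (smallest exact p 0.125 for 4 pairs), Musk in Sesn1SkM-Tg muscle was -0.0132, Musk in WT muscle of set 1 lost its call (1.283), and the calls over all genes for Sesn2SkM-Tg against WT, immobilized, went from 403 to 229.

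Direction turned in values that were not called. Scaled to the same sum, the immobilization change was 0.0777 for Dok7 in WT muscle of set 1, 0.20 for Chrnd and 0.0042 for Chrng in Sesn2SkM-Tg muscle and 0.0456 for Chrna1 in Sesn1KO muscle, and the denervated against immobilized difference was 0.23 for Agrn, 0.27 for Gabpa, which was then called, 0.17 for Pax7 and 0.0257 for S100b. Pax7 was 0.0406 after quantile normalization. With 1 library left out, the immobilization change ran from -0.10 to 0.31 for Musk in Sesn1SkM-Tg muscle, in Sesn2SkM-Tg muscle from -0.37 to 0.16 for Chrnd, from -0.21 to 0.0147 for Chrng and from -0.0063 to 0.28 for Ncam1, in WT muscle of set 2 from -0.28 to 0.0239 for Chrnd, and in Sesn1KO muscle from -0.53 to 0.0801 for Chrnd and from -0.37 to 0.0869 for Chrna1. Chrna9 in basal Sesn2SkM-Tg against WT muscle ran from -0.16 to 0.0109, and denervated against immobilized muscle from -0.11 to 0.0019 for Gabpa, from -0.0226 to 0.27 for Utrn, from -0.15 to 0.0175 for Pax7 and from -0.20 to 0.0260 for Agrn. Apart from settings that use fewer libraries, the cause was not tested. The unknown depth limits what can be said of Chrng and Chrna9 in innervated muscle.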
